A study of Mus musculus with 11 samples.

Results

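Cytochrome P450 families 1 and 2 were followed in liver as all rows of the deposited gene table whose symbol is Cyp1 or Cyp2, then 1 letter and digits. The rule took 39 of the 13636 genes and left out the rows named as pseudogenes. Male C57BL/6J mice had been fed Western diet for a month, starting when they were 8 weeks old. They were then injected for 6 weeks with PBS, with a scramble oligomer or with a miR-30c mimic, the oligomers at a dose that began at 2.5 mg/kg, passed 5.0 mg/kg and ended at 7.5 mg/kg. Liver RNA was sequenced in 4 PBS, 3 scramble and 4 mimic libraries, so that diet, sex and strain were shared by all 3 groups and the injected agent differed. The labels do not say that each library came from a separate mouse, so a p-value measures the spread between these libraries, which may be technical. The design sets the mimic against the scramble oligomer and against PBS, and the scramble oligomer against PBS.

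Enzymes of these families are haem proteins of the endoplasmic reticulum, most of them abundant in hepatocytes, that add oxygen to drugs, toxins, steroids, bile acids and fatty acids. They take electrons from the reductase encoded by Por, with cytochrome b5 as a second donor. Transcription of many members is set by the ligand-activated receptors AHR, CAR (Nr1i3) and PXR (Nr1i2) and by the liver factor HNF4A. Several members are found mainly around the central vein of the lobule, and a few differ between male and female mice through the rhythm of growth hormone. Inflammation is known to lower many of them in liver. A miR-30c mimic is a synthetic double-stranded copy of the microRNA, whose seed pairs with sites in messenger RNAs.

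Values are scaled CPM, read counts that the authors adjusted for the depth of each library and for a further scaling factor. The libraries held between 39705157 and 101380174 counted reads. Libraries mimic 1 and mimic 4 stood apart from the others: major urinary protein genes (Mup) took 12.5% and 11.6% of their reads, against 34.8% and 41.3% in mimic 2 and 3 and 37.9% to 52.9% in the 7 controls. Serum amyloid A genes (Saa) took 2.61% and 2.05% of reads in mimic 1 and 4, 0.699% and 0.720% in mimic 2 and 3, and at most 0.0211% in the controls. The part of these differences in the results on the P450 genes was not tested, and results are given with and without mimic 1 and 4. The 39 members together took 0.888% ± 0.157 of counted reads in PBS (SD, n = 4), 0.989% ± 0.175 in scramble (SD, n = 3) and 0.954% ± 0.104 in mimic (SD, n = 4). A share of reads depends on what the other genes take, and in scaled CPM the same sum was 10288 ± 549 in PBS, 11288 ± 118 in scramble and 7359 ± 1191 in mimic. In the 4 mimic libraries the sum was 6135, 8123, 8606 and 6574, all below the lowest control sum of 9483. In whole liver, fewer cells of a type and less RNA per cell cannot be told apart.

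The sequence of the microRNA that the agent copies is shown because microRNAs mostly find their targets through the seed. It is the mature mouse strand as RefSeq gives it (GRCm38.p6), 5′ to 3′, with the seed, bases 2 to 8, in capitals. The same mature strand is encoded by Mir30c-1 at chr4:120769584-120769606 on the minus strand and by Mir30c-2 at chr1:23291714-23291736 on the plus strand.
mmu-miR-30c-5p: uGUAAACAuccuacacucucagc
The match to the seed, TGTTTAC, was searched in the longest annotated 3′ UTR of each gene on the strand of the gene (GENCODE M21, GRCm38). Of the 37 members with such a UTR, 1 held it (2.7%), against 15.99% of the 11467 genes of the table with a UTR. The median UTR was 296 bases in the members and 1165 bases over the table. The member with matches was Cyp2j5, an enzyme that makes epoxides of arachidonic acid, with 2 sites, at bases 438 and 451 of its UTR of 695 bases. The first lies at chr4:96629024-96629030 and the second at chr4:96629011-96629017, both on the minus strand, and capitals mark the match.
Cyp2j5 first site: aggacaaagagTGTTTACaaagtatgttt
Cyp2j5 second site: tttacaaagtaTGTTTACcatgggtatat
A match of these letters is a description of sequence and not a measured site. No match was found in any other of the 37 members.

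With the mimic, the families were mostly lower than with the scramble oligomer. A member is called where limma's p, adjusted over all 13636 genes, was under 0.05. Against scramble, 17 of 39 members (43.6%) fell, beside 14.7% of all genes called lower. The fallers included Cyp2e1, the most abundant member, Cyp2c29, Cyp2c37, Cyp2c44, Cyp2c54, Cyp2a5, Cyp2a12, Cyp2d26, Cyp2f2 and Cyp1a2. A single member, Cyp1b1, rose, which is 2.56% of the members beside 17.3% of all genes called higher. Against PBS, 15 of 39 (38.5%) fell beside 17.1% of all genes, and Cyp1b1 again rose, beside 20% of all genes called higher. The mimic libraries did not overlap the scramble libraries in 18 members (46.2%) beside 40.8% of all genes, and did not overlap the PBS libraries in 11 members (28.2%) beside 31.7%. Both mimic comparisons share the 4 mimic libraries, so a member low there is low in both: 12 members fell in both, 5 against scramble alone, 3 against PBS alone, and 18 were called in neither.

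**Figure D1:**
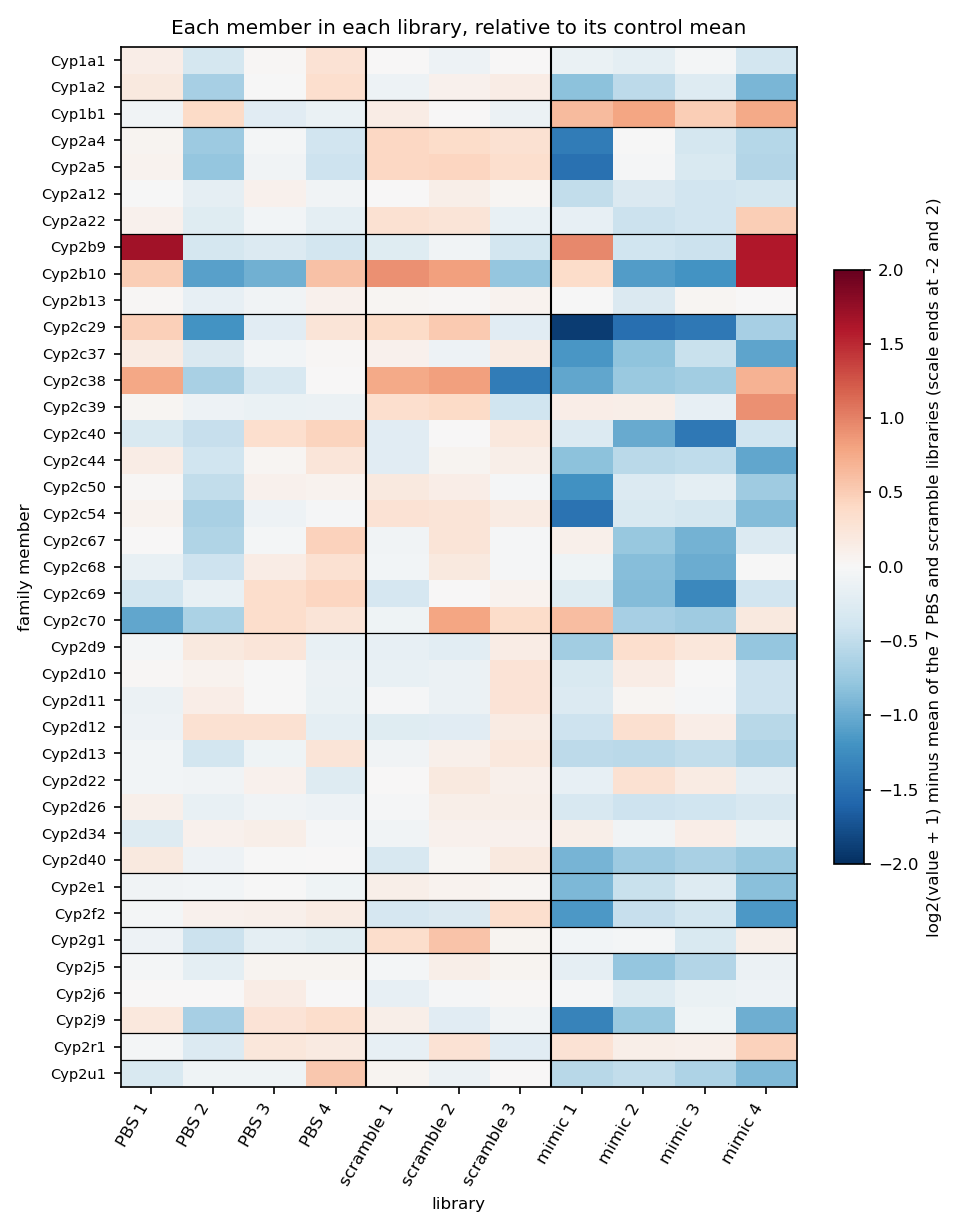
Colour gives log2(value + 1) of each of the 39 members (rows, by subfamily) in each of the 11 libraries (columns), minus the mean of the 7 PBS and scramble libraries, in the authors' scaling. Blue fills most rows of the 4 mimic columns, where in library totals the members' median changes were 0.05 against scramble and 0.28 against PBS; Cyp1b1 is red in all 4, and Cyp2b9, Cyp2b10, Cyp2c38 and Cyp2c70 vary between libraries of 1 group.

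The median log2 change of the 39 members was -0.50 against scramble and -0.31 against PBS, where the median of all genes was 0.00 in both. The counts depended on single libraries, for the members and over all genes. Against scramble the 17 became 10 without scramble 1, 11 without scramble 2 and 10 without scramble 3. In the same fits the 2000 of all genes called lower became 1165, 1541 and 1303. Against PBS the 15 became 9 without PBS 3 and 8 without PBS 4, while the 2326 of all genes became 1631 and 1651. Without mimic 1 and 4, 12 members were lower than in scramble, 7 of them among the 17, beside 971 of all genes. In that fit 10 members were lower than in PBS, 8 of them among the 15, beside 1142 of all genes. Cyp1b1 was called higher in both comparisons without any 1 of the 11 libraries and without mimic 1 and 4 together. By its name, the deposited gene table keeps genes that reached a CPM of 1 in 3 libraries. Cyp1b1 passed 1 scaled CPM in mimic 1, 2 and 4 alone, and its controls were at most 0.689. Its row may thus be present only because it was high with the mimic, so its rise is not independent of that filter.

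**Figure D2:**
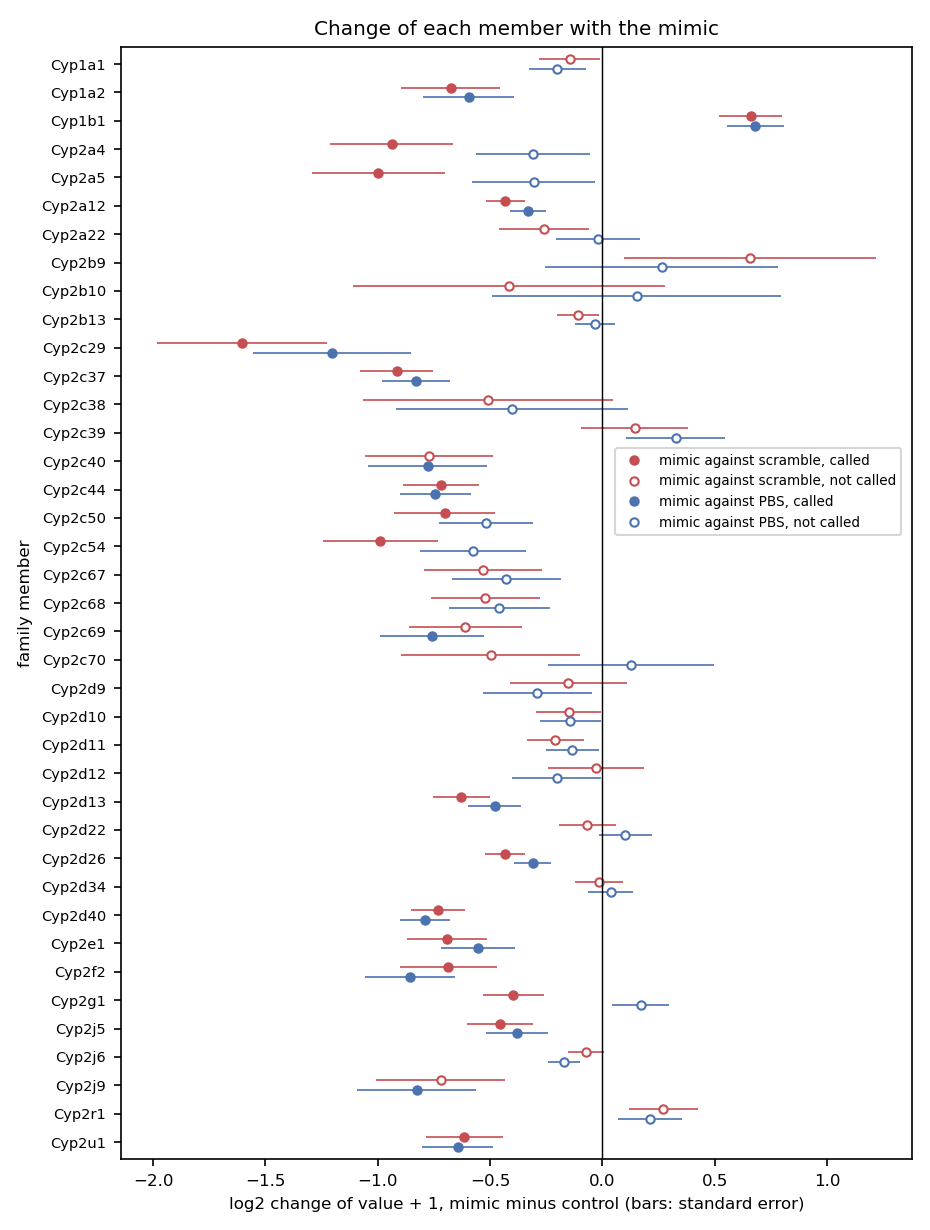
Points give limma's log2 change of value + 1 for each member, mimic minus scramble in red and mimic minus PBS in blue, with bars of 1 standard error; filled points passed an adjusted p of 0.05. Most points lie left of 0 in the authors' scaling, whereas after scaling to library totals the members' medians lay right of 0, at 0.05 and 0.28.

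The direction is relative to the bulk of the liver transcriptome. When each library was scaled to its own total instead, the median of all 13636 genes moved to 0.49 against scramble and 0.51 against PBS, and the members' medians to 0.05 and 0.28. In that scaling 5498 of all genes were called higher and 110 lower against scramble, and 6882 higher and 120 lower against PBS. Of the members, Cyp2c29 alone fell against scramble there, and Cyp1b1, Cyp2b9 and Cyp2r1 were called higher. Against PBS 6 members were called higher and 0 lower. All 17 members that fell against scramble lay below the median gene there, as did 33 of the 39 members, and 30 of 39 did against PBS. A new scaling moves all genes of a library together, so a gene's place beside the median gene hardly changes. These counts therefore repeat the first result and add no support to it. Statements that a member fell therefore mean a fall beside most other genes. They do not by themselves mean a smaller share of all reads, which differed between members. Of the 17 fallers against scramble, 3 had a change above 0 in library totals. The others stayed below 0 there, and of these Cyp2c29 alone was called.

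**Figure D3:**
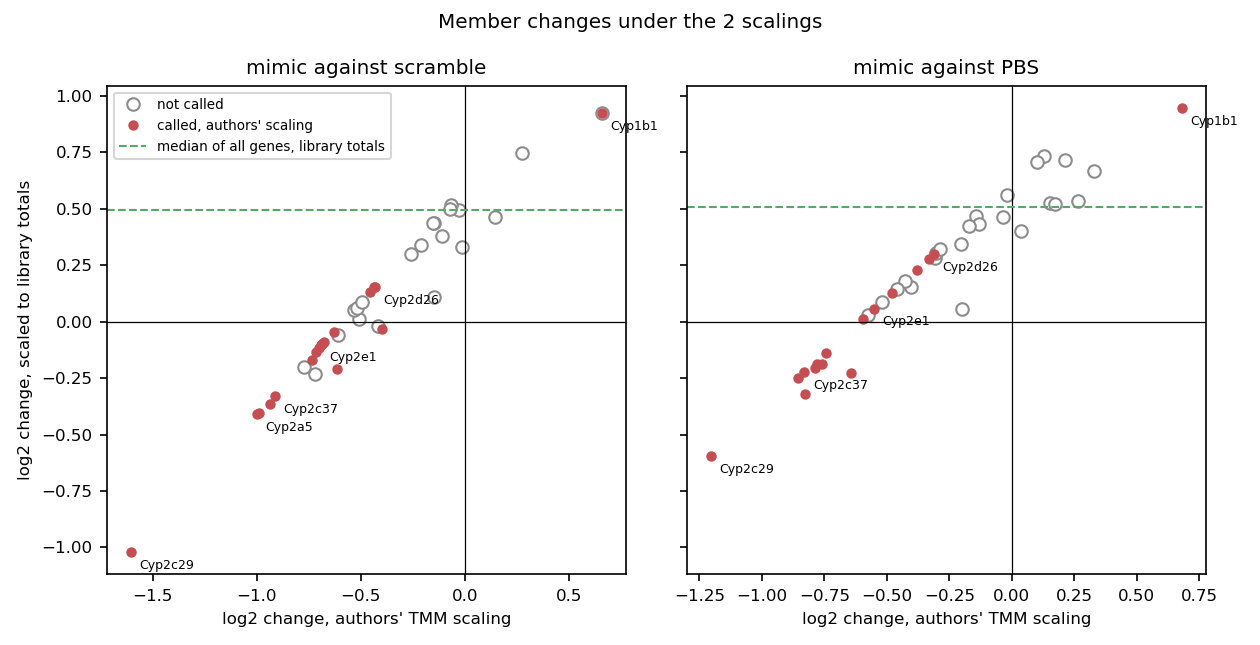
Each point is a member, with its log2 change in the authors' scaling on the x axis and its log2 change after scaling to library totals on the y axis, against scramble (left panel) and against PBS (right panel). The points lie higher on the y axis than on the x axis, so that 3 of the 17 fallers against scramble and 6 of the 15 against PBS (red) cross 0 on the y axis while staying under the dashed line, the median of all genes at 0.49 and 0.51.

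Cyp2e1 (chr7:140763739-140774987, plus strand), which oxidises ethanol, paracetamol and other small molecules around the central vein, carried about as much RNA as all other members together. Per kilobase of its longest annotated transcript it made up 51.75% of the summed per-kilobase level of the 38 members with a transcript in PBS, 51.94% in scramble and 50.13% in mimic. It stood at 5237, 5287, 5463 and 5183 scaled CPM in the PBS libraries, at 5974, 5814 and 5675 in scramble and at 2949, 4027, 4587 and 3103 in mimic. Every mimic library lay below every control, and mimic 1 and 4 were the lowest. The mimic mean of 3666 ± 777 (SD, n = 4) was 63.0% of the scramble mean and 69.3% of the PBS mean. Cyp2e1 fell by 0.69 ± 0.18 (SE) on the log2 scale against scramble (adjusted p = 0.0132, limma) and by 0.55 against PBS (adjusted p = 0.0222), whereas scaled to library totals the changes were -0.10 and 0.06. The log2 changes without mimic 1 and 4 were -0.44 (adjusted p = 0.0572) and -0.30 (adjusted p = 0.136). The call against PBS was also lost without PBS 3, PBS 4, mimic 1 or mimic 4 alone, at adjusted p up to 0.0616.

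The other listed members of the central zone fell with it against scramble. Of the 7 listed central members, Cyp1a2, Cyp2a5, Cyp2c29, Cyp2c37, Cyp2c50, Cyp2c54 and Cyp2e1, 7 were lower than in scramble, beside 14.7% of all genes, and 4 than in PBS, beside 17.1%. In library totals 1 was lower than in scramble, beside 110 of all 13636 genes, and 0 than in PBS, beside 120. Without mimic 1 and 4 there were 2 lower in each comparison, beside 971 and 1142 of all genes. Of the 5 measured CAR-inducible members, 4 were lower than in scramble and 2 than in PBS, beside the same shares of all genes. These counts were 1 and 0 in library totals, and 2 and 2 without mimic 1 and 4, beside the same counts of all genes.

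Cyp2c29 (chr19:39269405-39330713), a hydroxylase and epoxygenase that CAR raises strongly, fell most of all members on the log2 scale. Its PBS libraries gave 649.8, 204, 401 and 564, its scramble libraries 614, 674 and 402, and its mimic libraries 125, 164, 173 and 295. The mimic libraries lay below all scramble libraries, and PBS 2 lay among them. The mean of 189 ± 73.3 (SD, n = 4) in mimic was 33.6% of scramble and 41.6% of PBS, a log2 change of -1.61 ± 0.38 (SE, adjusted p = 0.00854) and -1.20 ± 0.35 (adjusted p = 0.0201) by limma. Scaled to library totals, the fall against scramble was 1.02 on the log2 scale, with an adjusted p of 0.0228. The call against scramble held without any 1 library and without mimic 1 and 4 (-1.70), and that against PBS was lost without PBS 1, PBS 4 or mimic 1, at adjusted p up to 0.06.

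Its neighbours on chromosome 19, Cyp2c37, Cyp2c50 and Cyp2c54, are also epoxygenases of arachidonic acid. Cyp2c37 stood at 274, 200.3, 234 and 248 in PBS, at 258, 226 and 275 in scramble and at 109, 139, 178 and 117 in mimic, so that the mimic libraries overlapped neither control group. It fell by 0.91 on the log2 scale against scramble (adjusted p = 0.0019) and by 0.83 against PBS (adjusted p = 0.00181), and kept both calls without mimic 1 and 4 and without any 1 library. Cyp2c54 fell by 0.99 against scramble (adjusted p = 0.0132), with 61.9, 141, 137 and 95.1 in mimic against 214, 209 and 196. Cyp2c50 gave 159, 304, 323 and 225 in mimic against 424, 406 and 363 in scramble, a fall of 0.70 (adjusted p = 0.034). Neither Cyp2c50 nor Cyp2c54 passed the test against PBS (adjusted p = 0.0702 and 0.076). Without mimic 1 and 4 their changes against scramble were -0.34 (adjusted p = 0.192) and -0.56 (adjusted p = 0.0537). Reads of these genes could have been counted in more than 1 row: 31.74% of the windows of 48 bases, the read length, in the Cyp2c37 transcript occur in transcripts of other genes, as do 32.24% for Cyp2c50 and 27.03% for Cyp2c54. For Cyp2c29 the share was 2.42%.

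Cyp2c44 (the annotation's Cyp2c23, chr19:44005022-44029208), a further epoxygenase, shared no window with another gene. Its values were 211, 144, 196 and 226 in PBS, 162, 199 and 207 in scramble and 107, 130.0, 133 and 91.6 in mimic, with no overlap between the mimic and either control group. It fell by 0.72 on the log2 scale against scramble (adjusted p = 0.0087) and by 0.74 against PBS (adjusted p = 0.00417). The changes were -0.52 (adjusted p = 0.0721) and -0.54 (adjusted p = 0.0464) without mimic 1 and 4.

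Cyp1a2 (chr9:57676937-57683703), which oxidises caffeine and aromatic amines, stood at 194, 107, 169 and 213 in PBS, 158, 179.6 and 188 in scramble and 95.1, 117, 142 and 89.6 in mimic. The mimic libraries lay below the scramble libraries, and PBS 2 overlapped them. It fell by 0.68 against scramble (adjusted p = 0.0354) and by 0.60 against PBS (adjusted p = 0.038), and in library totals its change against PBS was 0.01. Neither was called without mimic 1 and 4 (adjusted p = 0.24 and 0.296). Leaving out any of the 3 scramble libraries, mimic 1 or mimic 4 also ended the call against scramble, at adjusted p up to 0.104, and 7 of the 11 single libraries did so for the call against PBS.

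**Figure D4:**
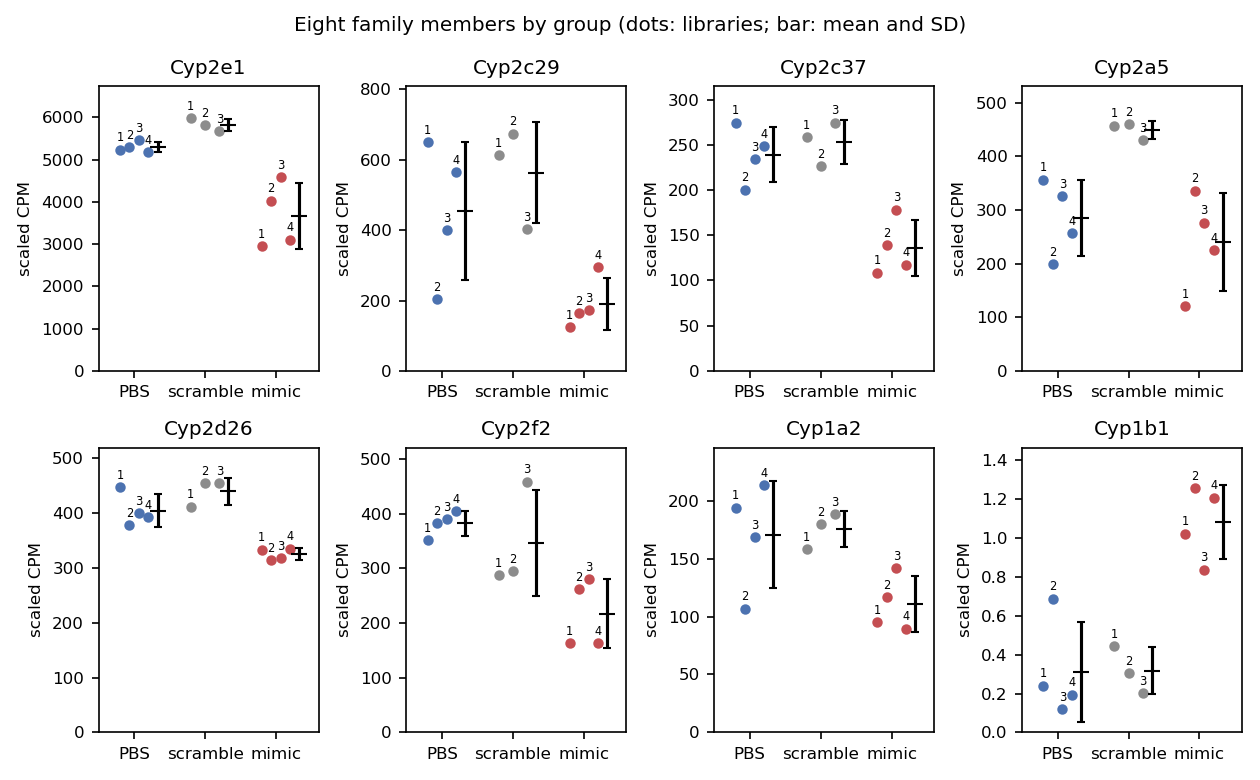
Scaled CPM of 8 members in each library (dots, numbered by replicate), with the mean and SD of each group beside them, and y axes from 0. Cyp2e1, Cyp2c37 and Cyp2d26 separate the mimic from both control groups, Cyp2a5 separates it from scramble only, and Cyp1b1 runs the other way; scaled to library totals, the changes of Cyp2d26 against both controls (0.15 and 0.30) and of Cyp2e1, Cyp2a5 and Cyp1a2 against PBS (0.06, 0.30 and 0.01) have the opposite sign.

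The Cyp2a rows split. Cyp2a5 (chr7:26835305-26843548), the mouse coumarin hydroxylase, stood at 356, 199, 326 and 257 in PBS, at 457, 460.2 and 430.1 in scramble and at 121, 336, 276 and 226 in mimic. Here the scramble group was the one set apart: its 3 libraries lay above all 4 PBS libraries as well as all 4 mimic libraries. Against scramble Cyp2a5 fell by 0.997 ± 0.296 (SE) on the log2 scale (adjusted p = 0.0243), whereas against PBS the change was -0.31 (adjusted p = 0.401), and 0.13 without mimic 1 and 4. Cyp2a4, a testosterone hydroxylase higher in females, had 59.1 ± 2.37 in scramble (SD, n = 3) and 32.2 ± 11.97 in mimic (SD, n = 4), a fall of 0.94 (adjusted p = 0.0227). Its change against PBS was -0.31 (adjusted p = 0.358), and 0.09 without mimic 1 and 4, and both genes had changes above 0 against PBS in library totals (0.28 for Cyp2a4 and 0.30 for Cyp2a5). The calls of Cyp2a4 and Cyp2a5 against scramble were lost without any 1 of the 3 scramble libraries and without mimic 1 and 4 (adjusted p = 0.0972 and 0.1). The ratio of Cyp2a5 to Cyp2a4 lay between 7.18 and 7.74 in all 11 libraries. Of the windows of the Cyp2a4 transcript, 37.79% also occur in Cyp2a5, so these rows are not independent measurements.

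Cyp2a12, a steroid hydroxylase between them and Cyp2f2 on chromosome 7, changed little but evenly. It gave 263, 234, 281 and 251 in PBS, 267, 289 and 272 in scramble and 189, 218, 203 and 208 in mimic, with no overlap between the mimic and either control group. The falls of 0.43 against scramble (adjusted p = 0.00397) and 0.33 against PBS (adjusted p = 0.00906) held without any 1 library, and had the opposite sign in library totals (0.15 and 0.28). Cyp2a22 did not pass in either comparison, with changes of -0.26 and -0.02. Of the windows of the Cyp2a12 transcript, 28.58% also occur in Cyp2a22.

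Among the 9 Cyp2d members of chromosome 15, 3 fell in both comparisons and 6 were called in neither. Cyp2d26 (chr15:82790101-82794294) stood at 447, 378, 400.2 and 392 in PBS, 412, 454 and 454 in scramble and 333, 315, 318 and 335 in mimic. The 4 mimic libraries lay within a ratio of 1.06 of each other and below all controls. Cyp2d26 fell by 0.43 ± 0.09 (SE) against scramble (adjusted p = 0.00396) and by 0.31 against PBS (adjusted p = 0.0127), kept both calls without mimic 1 and 4, and had the opposite sign in library totals (0.15 and 0.30). Cyp2d13, which RefSeq lists as a transcribed pseudogene (chr15:82636750-82642045), gave 114, 91.2, 112 and 142 in PBS, 113, 128 and 138 in scramble and 82.6, 81.1, 83.6 and 77.0 in mimic. It fell by 0.63 against scramble (adjusted p = 0.00375) and by 0.48 against PBS (adjusted p = 0.00883), where its change in library totals was 0.13. Cyp2d40 had the smallest p of all members in both comparisons, with falls of 0.73 (adjusted p = 0.00117) and 0.79 (adjusted p = 0.00039). Its level was 31.3 ± 2.94 in PBS (SD, n = 4), 30.4 ± 5.51 in scramble (SD, n = 3) and 17.7 ± 1.49 in mimic (SD, n = 4). The mimic libraries overlapped neither control group. Of the windows of the Cyp2d40 transcript, 25.54% also occur in other genes, and for Cyp2d13 no such share was computed.

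Cyp2d9 (chr15:82433437-82456845), the male-specific testosterone hydroxylase, had the second highest level per kilobase in each group and was not called. It stood at 689, 816, 837 and 639 in PBS, 634, 612 and 788 in scramble and 438, 894, 830.4 and 415 in mimic. Mimic 1 and 4 lay below all controls, and mimic 2 and 3 at the upper end of the controls or above it. The log2 changes were -0.15 ± 0.26 (SE, adjusted p = 0.68) against scramble and -0.29 (adjusted p = 0.365) against PBS, and without mimic 1 and 4 they were 0.35 (adjusted p = 0.14) and 0.22 (adjusted p = 0.313). Of the windows of the Cyp2d9 transcript, 30.69% also occur in other genes. Cyp2d10, which shares 41.85% of its windows with other transcripts, had the same order of mimic libraries. It gave 225, 309, 276 and 208 in mimic, where the 7 controls ran from 249.8 to 337. Mup genes, which are male-biased in liver too, were lowest in the same libraries, mimic 1 and 4, and their part in this was not tested.

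A group of near-identical Cyp2c genes on chromosome 19 had the reverse order. Cyp2c40 and Cyp2c69, which are higher in females, and their neighbours Cyp2c67 and Cyp2c68 were lowest in mimic 2 and 3. Cyp2c67 gave 154, 100.1, 149 and 211 in PBS, 146, 184 and 151 in scramble and 164, 89.9, 79.3 and 126 in mimic. Cyp2c40 gave 29.4, 26.2, 46.0 and 49.8 in PBS, 31.1, 36.5 and 42.3 in scramble and 30.04, 17.7, 12.9 and 27.3 in mimic. In both rows mimic 1 and 4 overlapped the PBS libraries, while mimic 2 and 3 lay below all 7 controls. For Cyp2c40 all 4 mimic libraries lay below the 3 scramble libraries. Against PBS Cyp2c40 fell by 0.78 (adjusted p = 0.0375) and Cyp2c69 by 0.76 (adjusted p = 0.0249). Against scramble none of the 4 was called, with adjusted p from 0.0575 for Cyp2c40 to 0.14 for Cyp2c67. Without mimic 1 and 4 all 4 were called lower in both comparisons, at -1.21 and -1.22 for Cyp2c40, -0.99 and -1.14 for Cyp2c69, -0.91 and -0.81 for Cyp2c67 and -0.96 and -0.90 for Cyp2c68. In library totals Cyp2c67 and Cyp2c68 had the opposite sign (0.05 and 0.06 against scramble). Between 44.78% (Cyp2c68) and 73.29% (Cyp2c40) of the windows of these transcripts occur in other genes, so reads may have been split among the 4 rows and the levels are uncertain.

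The mimic libraries thus took different orders in different members. In 16 of 39 members (41%) mimic 1 and 4 both lay below mimic 2 and 3, beside 27.2% of all genes, and in 13 (33.3%) both lay above, beside 25.9%. The first set included Cyp2e1, Cyp1a2, Cyp2a4, Cyp2a5, Cyp2f2, Cyp2c37, Cyp2c50, Cyp2c54 and 5 Cyp2d rows besides Cyp2d40. The other included Cyp2c40, Cyp2c67, Cyp2c68, Cyp2c69, Cyp2c70, Cyp2j5, Cyp2b9 and Cyp2b10. The 5 listed members that are higher in females were thus split. Cyp2a4 was in the first set, Cyp2c40, Cyp2c69 and Cyp2b9 were in the other, and Cyp2b13 was in neither. Of these 5, 1 was called lower against scramble, beside 14.7% of all genes, and 2 against PBS, beside 17.1%.

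**Figure D5:**
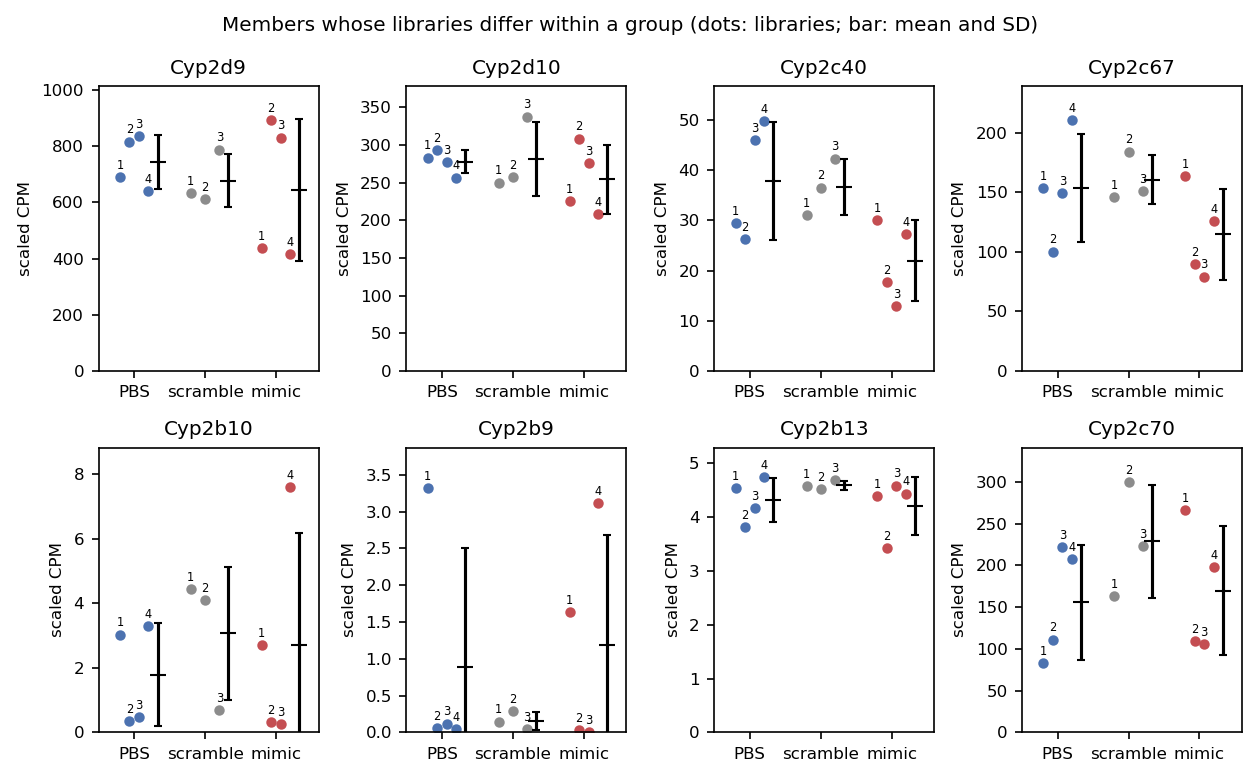
Scaled CPM of 8 members in each library (dots, numbered by replicate), with the mean and SD of each group beside them, and y axes from 0. Cyp2d9 and Cyp2d10 are lowest in mimic 1 and 4, Cyp2c40 and Cyp2c67 in mimic 2 and 3, Cyp2b9 and Cyp2b10 each hold libraries near 0 and libraries far above it in the same group, and Cyp2b13 stays between 3.42 and 4.74; SD bars that would pass under 0 are cut there.

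Some Cyp2c and Cyp2a genes share a promoter feature, which is shown because it is a binding sequence of HNF4A. RefSeq promoters (GRCm38.p6, 250 bases before to 50 after the start site) were matched for 31 members. The HNF4 core CAAAGTCC, searched on both strands, occurred in 7 of the 31 (22.58%), beside 2.02% of the 9459 genes of the table with a promoter and 1.63% of all 27025. The 30 bases around each core are given on the strand of the gene, 5′ to 3′, with the core in capitals.
Cyp2a4, chr7:26307126-26307155, plus strand: ataatcaagacCAAAGTCCggccttctgtc
Cyp2a5, chr7:26835272-26835301, plus strand: ataatcaagacCAAAGTCCgtccttctgtc
Cyp2c40, chr19:39812841-39812870, minus strand: tatcattgagaCAAAGTCCatttggaagag
Cyp2c67, chr19:39649149-39649178, minus strand: tatcattgagaCAAAGTCCatttggaagca
Cyp2c68, chr19:39741160-39741189, minus strand: tatcattgaaaCAAAGTCCaattggaagag
Cyp2c69, chr19:39886826-39886855, minus strand: tatcattgagaCAAAGTCCatttggaagag
Cyp2c70, chr19:40187332-40187361, minus strand: gaggtcaaactCAAAGTCCaaactctgtgt
The core began 55 and 56 bases before the start site in Cyp2a4 and Cyp2a5, and 45 to 125 bases before it in the Cyp2c genes. The flanks show 3 families of sequence, 1 for each set of duplicated genes, so the 7 matches do not come from 7 unrelated promoters. The TATA box TATAAA occurred in 20 of 31 (64.52%) beside 9.42% of the genes of the table. The AHR core GCGTG occurred in 6 (19.35%) beside 54.71%, among them Cyp1a1 and Cyp1b1. Motifs were searched on both strands, none of the 3 contains another, and a match is a description and not a bound site.

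Cyp2c70, which turns chenodeoxycholic acid into muricholic acid and shared no window with another gene, varied too much to be called. It gave 83.3, 111, 222 and 208 in PBS, 164, 299 and 223 in scramble and 266, 109, 105 and 198 in mimic, and the 3 groups overlapped. The changes were -0.50 ± 0.40 (SE, adjusted p = 0.354) against scramble and 0.13 (adjusted p = 0.81) against PBS.

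None of the 3 Cyp2b rows was called in either mimic comparison. Cyp2b10 (chr7:25897620-25926624), the classical gene that CAR induces, stood at 3.03, 0.354, 0.475 and 3.29 in PBS, at 4.43, 4.09 and 0.686 in scramble and at 2.70, 0.318, 0.257 and 7.61 in mimic. Each group held libraries near or above 3 and libraries under 1, with a 12.5-fold range over the controls and a 29.7-fold range over the mimic. The log2 changes were -0.42 ± 0.69 (SE, adjusted p = 0.673) and 0.15 ± 0.64 (adjusted p = 0.871). Cyp2c38, chosen after its values were seen, also varied within groups and matched Cyp2b10 only in part. It was high in PBS 1, scramble 1, scramble 2 and mimic 4 (21.4 to 23.6). It was low in scramble 3 (4.24) and mimic 1, 2 and 3 (5.74 to 7.58), and stood at 7.87, 10.1 and 13.0 in PBS 2, 3 and 4. Mimic 1 and PBS 4, with 2.70 and 3.29 of Cyp2b10, were thus not among the libraries high in Cyp2c38.

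Cyp2b9 and Cyp2b13, both known as higher in females, lie near each other on chromosome 7, at chr7:26173411-26210661 and chr7:26061497-26096197, and had different ranges. Cyp2b13 stood between 3.42 and 4.74 in all 11 libraries. Cyp2b9 stood at 3.32, 0.0558, 0.119 and 0.0484 in PBS, at 0.148, 0.290 and 0.0468 in scramble and at 1.63, 0.0303, 0 and 3.11 in mimic. PBS 1, mimic 1 and mimic 4 were high, with 220, 102 and 273 reads, and the other 8 libraries had at most 22 reads. The 0 in mimic 3 allows up to 0.0513 at 3 reads, counting error only. The changes of Cyp2b9 were 0.66 ± 0.56 (SE, adjusted p = 0.383) against scramble and 0.27 (adjusted p = 0.716) against PBS. Their promoters are printed because they are nearly the same while the RNA levels were not: 298 of 300 bases (99.3%) are identical, with the 2 differing bases in capitals, C48T and T104C from Cyp2b13 to Cyp2b9, counted from 1 at the 5′ end.
Cyp2b13, chr7:26061245-26061544, plus strand: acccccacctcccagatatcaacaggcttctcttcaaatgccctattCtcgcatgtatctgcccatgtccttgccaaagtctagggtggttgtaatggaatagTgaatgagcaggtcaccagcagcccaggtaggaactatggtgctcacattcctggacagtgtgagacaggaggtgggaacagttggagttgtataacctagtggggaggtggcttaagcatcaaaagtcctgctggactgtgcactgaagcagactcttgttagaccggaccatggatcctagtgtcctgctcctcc
Cyp2b9, chr7:26173159-26173458, plus strand: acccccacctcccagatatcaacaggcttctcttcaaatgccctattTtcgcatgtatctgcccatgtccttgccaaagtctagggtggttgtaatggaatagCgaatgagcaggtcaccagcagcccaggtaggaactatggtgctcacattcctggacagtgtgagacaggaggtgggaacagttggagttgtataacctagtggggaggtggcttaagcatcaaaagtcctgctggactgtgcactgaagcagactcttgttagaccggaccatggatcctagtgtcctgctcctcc
Of the windows of the Cyp2b9 transcript 11.48% also occur in Cyp2b13, so most of its sequence tells the genes apart.

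Of the AHR-inducible members, Cyp1b1 rose, Cyp1a2 fell as described and Cyp1a1 was not called; Cyp2s1 was not measured here. Cyp1b1 (chr17:79701537-79715061), which oxidises polycyclic hydrocarbons and oestrogens and is expressed in many cells outside the hepatocyte, had the lowest level per kilobase of the 38 members with a transcript in each group. Its values were 0.241, 0.689, 0.119 and 0.194 in PBS, 0.445, 0.304 and 0.203 in scramble and 1.02, 1.26, 0.838 and 1.21 in mimic, from 8 to 37 reads in the controls and 49 to 106 in mimic. All mimic libraries lay above all controls. Only mimic 1, 2 and 4 passed 1 scaled CPM, so the row may have entered the filtered gene table through the mimic alone. The mimic mean was 3.41-fold the scramble mean and 3.48-fold the PBS mean, and on the log2(value + 1) scale, which understates changes of low genes, Cyp1b1 rose by 0.66 ± 0.14 (SE, adjusted p = 0.00479) and 0.68 ± 0.13 (adjusted p = 0.00223). It rose in library totals too, by 0.92 and 0.95. With library totals centred on the median gene it was not called in either comparison, at 0.38 in both. Some markers of other cells moved with it and others did not. The 6 stellate cell markers summed to 59.4 to 96.2 in PBS, 86.2 to 97.9 in scramble and 175 to 341 in mimic. Of these, Col1a1, Col1a2 and Col3a1 were higher, Reln was lower and 2 were not called. The 7 markers of recruited macrophages summed to 15.7 to 49.7 in PBS, 18.3 to 26.3 in scramble and 131 to 206 in mimic, and all 7 rose in both comparisons. The 6 endothelial markers summed to 58.4 to 73.4 in PBS, 56.5 to 73.4 in scramble and 47.1 to 76.0 in mimic. Of these, 1 rose against scramble, and against PBS 0 rose and 2 fell. Among the 7 Kupffer cell markers, 3 fell and 0 rose in both comparisons. The part of these cells in the level of Cyp1b1 was not tested. Cyp1a1 (chr9:57687928-57703824) stood between 0.479 and 1.31 in all libraries, with changes of -0.15 (adjusted p = 0.428) and -0.20 (adjusted p = 0.23).

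Cyp2f2 (chr7:27119909-27133660), which activates naphthalene and was the 1 listed member of the portal zone, stood at 351, 383, 390.3 and 405 in PBS, 287, 295 and 459 in scramble and 163, 262, 280.4 and 163 in mimic. The mimic libraries lay below all controls, mimic 1 and 4 lowest. It fell by 0.69 against scramble (adjusted p = 0.0321) and by 0.86 against PBS (adjusted p = 0.00711). The call against scramble was lost without scramble 3, mimic 1 or mimic 4, at adjusted p up to 0.139. In the fit without mimic 1 and 4 the changes were -0.32 (adjusted p = 0.241) and -0.49 (adjusted p = 0.067).

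Cyp2j5, the member with the seed matches printed above, stood at 228, 206, 244 and 243 in PBS, 229, 255 and 243 in scramble and 208, 137, 155 and 217 in mimic. Mimic 2 and 3 were lowest, and mimic 1 and 4 overlapped PBS. By limma, Cyp2j5 fell by 0.46 ± 0.15 (SE) against scramble (adjusted p = 0.0362) and by 0.38 against PBS (adjusted p = 0.0479). Whether the matches had a part in these falls was not tested. Without mimic 1 and 4 the falls were 0.72 (adjusted p = 0.00186) and 0.65 (adjusted p = 0.00224). Leaving out PBS 1, any scramble library, mimic 2 or mimic 3 ended the call against scramble, 8 of the 11 single libraries ended the call against PBS, and in library totals the sign was opposite (0.13 and 0.23). Of its neighbours on chromosome 4, Cyp2j9 gave 4.70 ± 2.20 in mimic against 8.96 ± 2.74 in PBS, a fall of 0.83 (adjusted p = 0.0297) that 6 of the 11 single libraries ended. Cyp2j6 was not called, at -0.07 and -0.17.

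Cyp2u1 (chr3:131288441-131303227), a fatty acid hydroxylase, had 2.38, 2.94, 2.95 and 5.10 in PBS, 3.38, 2.88 and 3.20 in scramble and 1.87, 1.98, 1.74 and 1.29 in mimic. The mimic libraries lay below all controls, and it fell by 0.61 (adjusted p = 0.0182) and 0.64 (adjusted p = 0.00886). Against scramble the call was lost without scramble 1 or scramble 3, at adjusted p up to 0.066. Cyp2r1, a vitamin D hydroxylase, was not called, with 3.49 ± 0.909 in scramble (SD, n = 3) and 4.39 ± 0.653 in mimic (SD, n = 4), a change of 0.27 (adjusted p = 0.193). In library totals it was called higher in both comparisons, at 0.75 and 0.72.

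Between scramble and PBS, limma called 0 of the 39 members and 0 of all 13636 genes. At an unadjusted limma p under the same threshold, 3 members (7.69%) passed, beside 3.18% of all genes. They were Cyp2g1, Cyp2a5 and Cyp2a4, all with a higher mean in scramble, and their adjusted p was 1. The groups did not overlap in 5 members (12.8%), beside 4.72% of all genes, namely these 3, Cyp2c54 and Cyp2e1, all higher in scramble. Cyp2g1 (chr7:26808892-26821205), a member known from olfactory mucosa, lies next to Cyp2a5 and gave 1.24, 0.763, 1.08 and 1.02 in PBS, 2.03, 2.55 and 1.48 in scramble and 1.30, 1.33, 0.924 and 1.58 in mimic. Its change from PBS to scramble was 0.57 ± 0.14 (SE). From scramble to mimic it fell by 0.40 (adjusted p = 0.0439), a call that 8 of the 11 single libraries ended, and against PBS it was not called, at 0.17. For Cyp2a4, Cyp2a5 and Cyp2g1 the mimic was thus lower than scramble and not called against PBS, while for Cyp2c37, Cyp2c44, Cyp2d40 and Cyp2f2 the fall against PBS was 0.74 or more on the log2 scale.

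The genes that supply the P450 enzymes with electrons and haem changed in part. Counts against scramble stand beside 14.7% of all genes called lower and 17.3% called higher. Of 6 genes of electron supply, 3 fell against scramble, and 1 without mimic 1 and 4: Cyb5a, the cytochrome b5, by 0.56 (adjusted p = 0.00494), Pgrmc1 by 0.42 (adjusted p = 0.0107) and Cyb5r3, the reductase of cytochrome b5, by 0.35 (adjusted p = 0.0378). Por, the common reductase, was not called, with 384 ± 45.4 in scramble (SD, n = 3) and 343 ± 100.4 in mimic (SD, n = 4). Of 8 genes of haem synthesis, 2 fell, Cpox by 0.73 (adjusted p = 0.000384) and Fech by 0.50 (adjusted p = 0.00239), and Uros rose by 0.41 (adjusted p = 0.0176). Of 4 genes of haem breakdown 2 rose, Hmox1 by 0.66 (adjusted p = 0.0233) and Blvra by 0.35 (adjusted p = 0.0055). In library totals 0 genes of electron supply or haem synthesis were called lower against scramble. In that scaling 3 of haem synthesis and 4 of haem breakdown were called higher, beside 5498 of all 13636 genes higher and 110 lower. In the fit without mimic 1 and 4, 2 genes of haem synthesis were lower and 0 higher, and 1 of haem breakdown was higher. Of the epoxide hydrolases, which act on products of the Cyp2c and Cyp2j enzymes, Ephx2 fell by 0.62 (adjusted p = 0.036) and Ephx1 was not called. Without mimic 1 and 4, 0 of these 2 genes were called lower, and in library totals 0 were lower and 1 was higher.

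Among 25 measured transcription factors and receptors known to control these genes, 9 fell and 0 rose against scramble, beside 14.7% of all genes lower and 17.3% higher. Against PBS 6 fell and 0 rose, beside 17.1% of all genes lower and 20% higher. In library totals 1 was lower and 3 were higher against scramble, beside 110 and 5498 of all 13636 genes. Against PBS 0 were lower and 10 higher in that scaling, beside 120 and 6882 of all genes. Without mimic 1 and 4, 3 of the 25 were lower against scramble and 2 against PBS, beside 971 and 1142 of all genes. The CAR gene Nr1i3 fell from 163 ± 3.38 (SD, n = 3) to 93.5 ± 29.7 (SD, n = 4), by 0.85 on the log2 scale (adjusted p = 0.0208). The PXR gene Nr1i2 fell by 0.48 (adjusted p = 0.012), Nr3c1, the glucocorticoid receptor, by 0.53 (adjusted p = 0.00166), Ppara by 0.67 (adjusted p = 0.00671) and Arnt, the partner of AHR, by 0.43 (adjusted p = 0.00249). Of 10 other genes that CAR and PXR raise, 4 fell and 1 rose against scramble, and 3 were lower and 0 higher without mimic 1 and 4; in library totals 1 was lower and 2 were higher. Cyp3a11, a P450 of another family, went from 1043 ± 175 in scramble to 195 ± 55.7 in mimic, a fall of 2.45 (adjusted p = 7.68e-05), more than any member of families 1 and 2. Ugt1a1 fell by 0.93 (adjusted p = 0.000835) and Ces2a by 0.87 (adjusted p = 0.0003), while Gstm3 rose by 0.85 (adjusted p = 0.0162). Of 4 other AHR genes, Ugt1a6a fell by 0.84 (adjusted p = 0.00143), Tiparp fell by 0.64 (adjusted p = 0.0404) and Nqo1 rose by 0.54 (adjusted p = 0.00291).

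Zonation genes outside the P450 families were counted in the same way. Of 9 other central genes, 0 were called against scramble (Glul was 370.3 ± 58.6 in scramble and 345 ± 59.7 in mimic), and against PBS 1 was lower. Of 12 other portal genes, 4 rose against scramble, among them Aldh1b1 by 1.95 (adjusted p = 0.000432) and Arg1 by 0.50 (adjusted p = 0.0274), and 0 fell, beside 17.3% of all genes higher and 14.7% lower. Against PBS 3 of the portal genes rose and 2 fell, beside 20% of all genes higher and 17.1% lower. Without mimic 1 and 4, 5 were higher and 0 lower in each comparison. In that fit 1577 of all 13636 genes were higher and 971 lower against scramble, and 1752 and 1142 against PBS. In library totals 7 portal genes were higher and 0 lower in each comparison. Of the 9 other central genes, 2 were higher there against scramble and 1 against PBS, beside 5498 and 6882 of all genes. The hepatocyte markers, which check the tissue, summed to 28677 to 30266 in mimic, within the range of 25523 to 32286 of the PBS libraries. Single markers moved apart within that sum: 2 of the 7 rose and 1 fell against scramble. The log2 changes of the 7 ran from -0.56 for Apoa2 (adjusted p = 0.00467) up to 2.82 for the marker with the largest change. Ahsg, which encodes fetuin, rose by 0.47 (adjusted p = 0.032). Because of this spread, the sum cannot tell whether the hepatocyte content changed. Alb, the albumin gene, was not called (-0.52, adjusted p = 0.118), with every mimic library below every control. Among the acute phase genes 7 of 9 rose in both comparisons, with Saa2 at 6.02 ± 1.57 in scramble and 4482 ± 2115 in mimic. The Kupffer cell genes Clec4f, Timd4 and Vsig4 fell, the other 4 on that list were not called, and of the neutrophil genes 3 of 3 rose. The part of acute phase genes and of other cells in the P450 results was not tested.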

How the data were processed

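Liver RNA was sequenced with a stranded messenger RNA kit in paired reads of 48 bases, per the labels' protocols. The submitters' processing notes name, without roles, edgeR 3.8.6 in R 3.1.2, bedtools 2.17.0, SAMtools 0.1.19, Bowtie, FastQC 0.11.3, bcl2fastq 1.8.4 and the mouse build mm10, and the gene annotation is not given in the sources used here. The deposited table holds a scaled signal per gene and library, made by the authors. Every value was a whole multiple of a step of its library (100%, tolerance 1e-06), and TMM factors computed from these multiples gave back the deposited scaling. Depth is the sum of the multiples, and 0 per-sample columns were left unused.

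Changes were fitted in R 4.3.3 with limma 3.58.1 on log2(value + 1) over all 13636 genes and 11 libraries, without covariates, with Benjamini-Hochberg adjustment and a threshold of 0.05. The fit was tested on simulated data with 100 genes changed 2-fold and 100 changed 4-fold: 88% and 98% were recovered for the mimic against scramble, with 9 false calls.

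The members and lists were chosen with earlier results of these data known. Members with a mean of at least 100 over the groups were named, as were the 8 called members per direction against scramble and the 4 against PBS with the smallest p, the 3 with the smallest p between scramble and PBS, and a list of 21 members. Up to 4 genes of each other list with the smallest p were named. Cyp2a22, Cyp2c38, Cyp2c68, Cyp2j6, Cyp2j9, Por and Nr1i3 were named after their values were seen. Cyp2c44 was matched to the annotation through its RefSeq synonym Cyp2c23, and Cyp2d13 to RefSeq alone. Windows of 48 bases were counted as shared where they occur in a transcript of another gene. The alternatives were a pseudocount of 0.25, a minimum mean of 1, other scalings, a replicate block and fits without single libraries or without mimic 1 and 4.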

Additional observations from a re-analysis of the deposited data

Results flagged for a closer look

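In groups of 4 libraries, 78 sets of values were examined for a single library far from the others by Dixon's criterion, which chance passes in about 1 in 20 groups. The criterion was passed by 4 of them. Cyp2c50 was 261 in PBS 2 and 375 to 393 in the other PBS libraries. Cyp2j6 was 41.4 in PBS 3 and 37.3 to 37.5 in the others. Cyp2b9 was 3.32 in PBS 1 and 0.0484 to 0.119 in the others. Cyp2c38 was 21.4 in mimic 4 and 5.74 to 7.58 in the other mimic libraries.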

How the results depend on the processing

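Scaled to library totals, 3 members were called higher and 1 lower against scramble, and 6 higher and 0 lower against PBS. Of all 13636 genes, 5498 were called higher and 110 lower in that scaling against scramble, and 6882 and 120 against PBS. The sign was opposite there for 17 of the 39 members against scramble, 3 of them called in the deposited scaling, and for 21 against PBS, 6 of them called. Against scramble the called ones were Cyp2d26 (0.15), Cyp2j5 (0.13) and Cyp2a12 (0.15). Against PBS those called in either mimic comparison were Cyp2d13 (0.13), Cyp2d26 (0.30), Cyp2c50 (0.089), Cyp2j5 (0.23), Cyp2a4 (0.28), Cyp2a5 (0.30), Cyp2a12 (0.28), Cyp2e1 (0.057), Cyp1a2 (0.010) and Cyp2c54 (0.031). The median of all genes moved up in this scaling, to 0.49 and 0.51. With the totals centred on the median gene, an alternative chosen after seeing the data, 0 members were called higher and 16 and 15 lower, and Cyp2g1 against PBS was -0.045. With genes of a mean of at least 1, 0 were called higher in either comparison, because Cyp1b1 was not tested there. Without mimic 1 and 4, the change against PBS was 0.093 for Cyp2a4 and 0.13 for Cyp2a5. Leaving out 1 library gave 10 to 19 members lower against scramble and 8 to 19 against PBS, and 1 higher in both. Over all genes, the same fits gave 1165 to 2305 lower against scramble and 1631 to 2687 against PBS. Median-of-ratios factors gave the same counts as the deposited scaling, and a pseudocount of 0.25 gave 16 lower against scramble and 15 against PBS. Between scramble and PBS, 0 members were called in every fit without 1 library.

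Replicate numbers recur across the groups, but the labels do not say that they pair libraries, and the 10 same-numbered pairs had correlations of deviations from -0.28 to 0.26. Of the 11 libraries, 3 correlated best with their own number. With a replicate block, 14 members were lower against scramble, 13 of them among the 17, and 14 against PBS, and Cyp1b1 was higher in both. The planned count tests with edgeR and DESeq2 were not run. The 4 mimic and 3 scramble libraries limit the precision, and the members with the lowest values rest on few reads.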
